A study of Bos taurus with 15 samples.

Results

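The genes described here are 145 bovine genes whose mean transcript level was higher in oocytes collected 19 to 23 h after oestrus was detected than in oocytes labelled 24 h or 2 h before ovulation. They were chosen on these measured values. Candidates were the 1741 genes that have a symbol on the study's list of genes differing between dominant follicle (DF) oocytes and >120 μm oocytes. A level is log2(CPM + 1), where CPM scales an oocyte's counts to a total of 1000000, not divided by transcript length, so levels are compared between oocytes and not between genes. A gene was taken when its mean level at 19 to 23 h after oestrus detection (T2) was 4 or more and at least 0.8 above both the mean 24 h before ovulation (T1) and the mean 2 h before ovulation (T3), with T3 at most 1.5 below T1. These limits left 159 genes, and 14 whose symbols begin with one of 20 family prefixes were dropped (5 of them USP deubiquitinases and 2 ZNF zinc finger genes). The 145 members are 8.33% of the 1741 candidates and 15.9% of the 914 candidates that met the T2 level, out of 21218 genes counted in the whole series.

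Single DF oocytes were sequenced from crossbred nulliparous beef heifers whose oestrus had been synchronised with GnRH, a progesterone device (PRID) and prostaglandin F2α. Each oocyte came from a different animal, was freed of cumulus cells and made into a Smart-seq2 library, which captures messenger RNA by its poly-A tail. There were 6 oocytes at T1, 4 at T2 and 5 at T3, and the 11 that passed the study's quality control were used for the choice (T1.1, T1.2, T1.3, T1.5, T1.6, T2.1 to T2.4, T3.2 and T3.4). The study's methods tie a further dose of GnRH to heifers collected about 2 h before ovulation. Time and this treatment therefore cannot be told apart in a comparison with T3. The wording does not settle whether the heifers of the T2 oocytes also received it, so T2 against T1 may hold the same confound. The titles of the T2 samples count their hours before ovulation while their other labels count them from oestrus detection, and the latter is used here. Oocytes of T2 and T3 were collected on the same day of the synchronisation, 1 day after those of T1, so the sources used here do not show that T3 came after T2. The oocytes came from 2 earlier trials, and which oocyte came from which trial is not given in the sources used here, so trial and group cannot be told apart.

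A fully grown oocyte transcribes little and lives on stored messenger RNA. After the preovulatory gonadotrophin surge it leaves meiotic arrest, its nuclear envelope breaks down, its chromosomes condense and a spindle forms. During this time the poly-A tails of stored transcripts are lengthened or shortened, some transcripts are translated and many are degraded. Levels from poly-A capture therefore follow tail length as well as the number of molecules, and a level relative to the library total says nothing about the amount of RNA per oocyte.

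Total counts of the 11 oocytes ranged from 824854 to 4894970, with 2 T3 oocytes of 2617518 and 2834737, and counts in at least 8537 genes in each. All 145 members had a count in each of the 4 T2 oocytes, 118 to 145 had one in a T1 oocyte and 133 or 142 in a T3 oocyte. Markers could be named only where they were on the study's list of differing genes, so the others were not examined. Of 12 oocyte markers 5 could be named, and all 5 had counts in all 11 oocytes. OOSP2 lay between 1897 and 15523 CPM. Of 20 cumulus and granulosa markers 3 could be named. Their summed level was 98.8 to 423 CPM at T1, 204 to 399 CPM at T2 and 56.9 to 123 CPM at T3. STAR had counts in all 11 oocytes, at 80.8 to 376 CPM at T1, 188 to 365 CPM at T2 and 54.2 to 111 CPM at T3. KRT19 was at 0 in 1 of the 11 and CD44 in 7. Of 15 leukocyte markers 4 could be named, with 160 to 1182, 140 to 721 and 115 to 174 CPM. IRF8, SRGN and CSF1R had counts in all 11 oocytes, with SRGN up to 1100 CPM at T1, and PTPRCAP was at 0 in 5 oocytes. None of 7 erythrocyte markers could be named. No marker was a member, and the part of other cell types in the members' levels was not tested.

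Within the 145 members the T2 mean was above the T1 mean by 0.81 to 3.85 (median 1.14) and above the T3 mean by 0.81 to 4.26 (median 1.48). The same medians over all 10198 genes tested were 0.10 and 0.49. The members' differences follow from the choice and carry no test. They are differences of mean log levels, and fold changes fitted to the counts are given with the tests below. With TMM-scaled CPM the medians over all genes moved to 0.02 and 0.23 and those of the members to 1.09 and 1.17. Relative to all genes the members stood 1.05 and 0.99 higher by library total and 1.08 and 0.94 higher by TMM. These are medians over genes that library-total levels had chosen. With TMM-scaled CPM 103 genes met the limits, 94 of them among the 145. Just inside the limit on T2 minus T1 were XPO1 (0.81), WDR47 (0.81) and GARIN2 (0.81), and just outside it STIL (0.79), HIF1A (0.79) and ARRDC2 (0.78). Just inside the limit on T2 minus T3 were COQ6 (0.81), NAV3 (0.81) and CLP1 (0.83), and just outside it ATOSA (0.799), EXOC5 (0.79) and IPP (0.77). The choice leans on single oocytes. With 1 oocyte left out the T2 minus T1 difference moved by over 1.5 times in 94 members and the T2 minus T3 difference in 76, and such moves are given beside the differences of the members below. Without T1.2, 71 genes met the limits, 67 of them among the 145, and 78 members were lost; 58 were lost without T3.2, 43 without T3.4 and 37 without T1.5, against 2 to 24 without any other oocyte. In all, 31 members met the limits whichever of the 11 oocytes was left out, 28 met them in 10 of the 11 cases and 86 in 9 or fewer. Among those described here with their values, the 31 include SERINC1, RIOK3, N4BP2L2, CSNK1G3, CIP2A, ITGB1, TOP2A, MARCHF7, PPIP5K2, SEC23A, MYNN, COG6, DIS3, PDS5B, POLK, CLASP2 and TMEFF1.

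**Figure D1:**
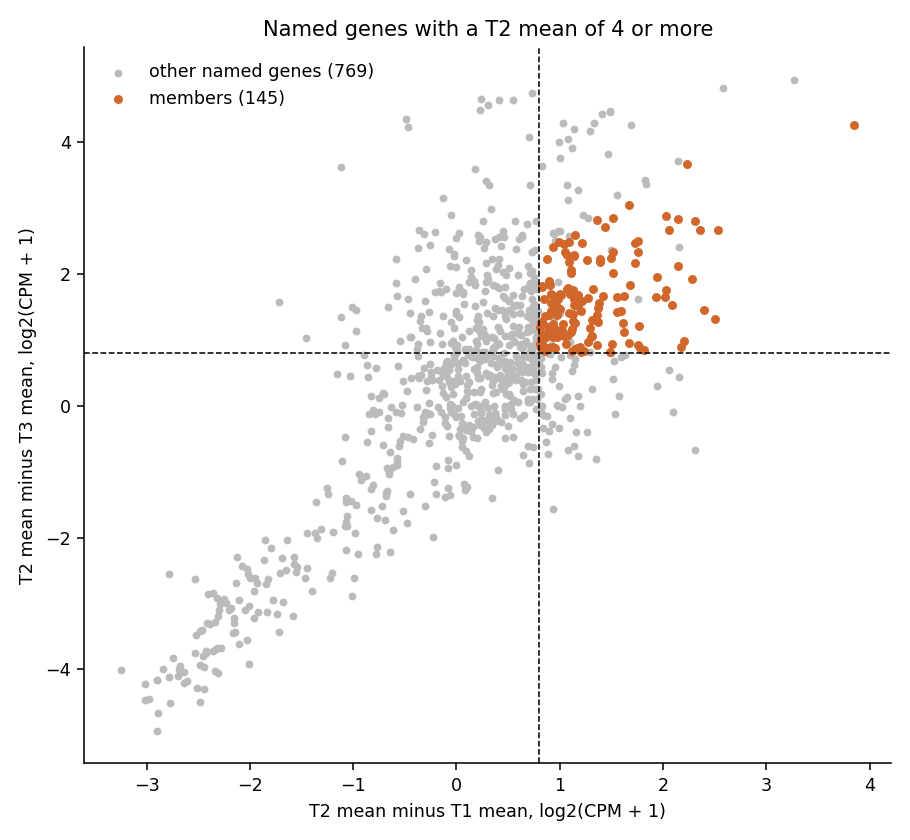
The T2 mean minus the T1 mean (x axis) and minus the T3 mean (y axis), both in log2(CPM + 1), for the 914 named genes with a T2 mean of 4 or more. Dashed lines mark the limits of 0.8, and the 145 members (orange) lie above both by construction, among them PLSCR2 alone at the far right (3.85, 4.26).

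The gene lists examined hold the following counts of members, given with no test. The 8.33% of all candidates belongs beside the share of a list's named genes. The 15.9% belongs beside the share of its genes that met the T2 level, whose number follows each list's size in brackets. Of 23 (20) named genes for cohesin, condensin and chromosome structure 8 were members, 34.8% of the 23. That list also holds CIP2A, the spindle factor TPX2 and the kinetochore genes ZWINT and KNTC1. Phosphoinositide, Ras and protein kinase signalling gave 14 of 69 (54), and RNA decay and translation control 8 of 40 (27). Centrosome, microtubule and cilium gave 10 of 58 (40), and chromatin modifiers and remodellers 12 of 73 (47). Transcription factors and coregulators gave 8 of 49 (32), DNA repair 7 of 54 (33) and transcription machinery 5 of 39 (25). Golgi and vesicle traffic gave 9 of 93 (57), and lipid transfer proteins 2 of 21 (15). Adhesion and growth factor receptors gave 3 of 38 (22) and the ubiquitin and SUMO pathway 4 of 64 (38). None of the 22 genes on the oocyte and germline list and none of 30 oxidative phosphorylation genes was a member, and 52 members were in no list. Some germ cell genes, such as DND1 and PRDM1, were members but were placed in other lists. Only 1 of the 30 oxidative phosphorylation genes had a higher T2 than T1 mean and 3 a higher T2 than T3 mean, with median differences of -2.09 and -3.21.

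**Figure D2:**
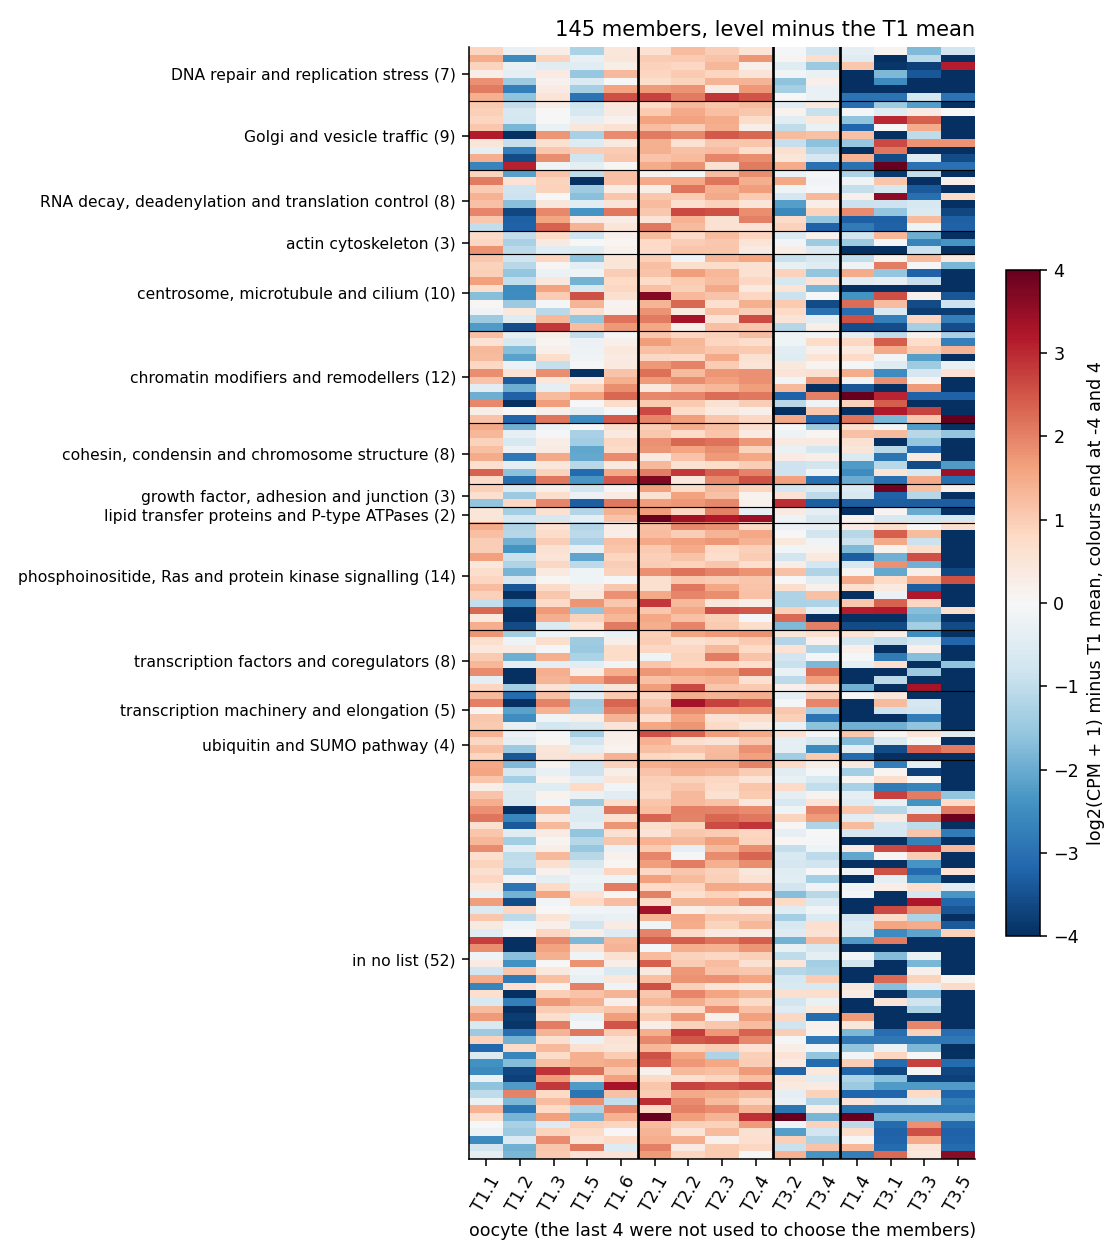
Level of each of the 145 members (rows, by gene list) in each oocyte (columns) minus its T1 mean, in log2(CPM + 1), red above and blue below. The 4 T2 columns are nearly all red, T1.1 is often as red as they are, T1.2 is mostly blue, and the last 4 columns are oocytes that were not used to choose the members.

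All 4 T2 oocytes were above all 5 T1 oocytes for 14 members (9.66%), beside 2.38% of all genes tested. They were above both T3 oocytes for 101 members (69.7%), beside 25.1% of all genes tested. T1 had 5 kept oocytes to exceed and T3 only 2, so the 2 counts are not compared. Nothing is read from them or from the counts per list that follow, because the choice used the same levels.

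Genes that hold chromosomes together and build the spindle gave 8 members, with T2 means from 5.16 (ZWINT) to 10.67 (TPX2). CIP2A, an inhibitor of protein phosphatase 2A, was at 8.84, 7.28, 8.18, 6.51 and 8.75 in T1.1, T1.2, T1.3, T1.5 and T1.6, an order kept for all T1 values that follow. It was at 9.75, 10.22, 10.08 and 9.66 in T2.1 to T2.4, and at 8.26 and 8.29 in T3.2 and T3.4. Every T2 oocyte was thus above every T1 and T3 oocyte, with means of 7.91 ± 1.00 (SD, n = 5) at T1 and 9.93 ± 0.27 (SD, n = 4) at T2. TPX2, a spindle assembly factor that activates Aurora A kinase, was at 11.12, 7.66, 9.37, 9.59 and 10.25 at T1, 10.57, 11.04, 10.81 and 10.26 at T2 and 9.60 and 8.19 at T3. T1.1 was above all 4 T2 oocytes for TPX2, and T1.2 was the lowest of the 11. SMC3, a core subunit of the cohesin ring, read 10.83, 9.19, 9.43, 8.22 and 9.88 at T1, 10.59, 10.26, 10.63 and 9.84 at T2 and 9.31 and 9.60 at T3, so its T1 and T2 oocytes overlapped and its T2 oocytes lay above both T3 oocytes. TOP2A, the topoisomerase that untangles condensing chromosomes, was 1.52 higher at T2 than at T1 and 2.01 higher than at T3 (1.00 from T1 without T1.5), with T2 levels of 9.13 to 10.09. PDS5B, which regulates cohesin release, was at 7.71, 3.70, 6.24, 2.23 and 6.84 at T1 against 7.38, 8.16, 7.75 and 7.34 at T2 and 4.52 and 5.18 at T3. T1.2 and T1.5 were low for PDS5B while T1.1 reached the T2 range. ZWINT, a kinetochore protein, was scattered in every group, at 0.00 to 5.48 at T1, 3.44 to 6.72 at T2 and 0.00 and 4.66 at T3. The other members of this list were KNTC1, of the kinetochore RZZ complex, and PDS5A.

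Centrosome and microtubule genes gave 10 members. CEP170, a centrosomal protein, ranged over 6.98 to 9.67 at T1 and 8.51 to 10.18 at T2, with T3 at 7.71 and 7.97. WDR47, a microtubule-associated protein, had T2 levels of 9.87, 9.37, 9.39 and 9.27 and T1 levels of 9.60, 7.57, 8.70, 8.32 and 9.16. CCP110, which caps centrioles, was 1.18 above T1 and 1.51 above T3, and its T3 oocytes were far apart at 8.13 and 5.62. The difference of CCP110 from T3 was 0.26 without T3.4 and 2.77 without T3.2. The centriolar CEP295 ranged from 7.91 to 8.39 at T2 and from 5.24 to 8.77 at T1. CLASP2, which binds growing microtubule ends, was at 1.29, 2.23, 4.04, 1.15 and 4.91 at T1, 4.81, 6.06, 3.29 and 5.34 at T2 and 3.24 and 2.27 at T3, differences of 2.15 and 2.12. None of the 10 had all T2 oocytes above all T1 oocytes, beside 2.38% of all genes, and 5 had all above both T3 oocytes, beside 25.1%, on levels that the choice used.

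Chromatin members included silencing factors, Polycomb proteins and a remodelling ATPase. TASOR, of the HUSH silencing complex, was at 11.14, 9.55, 10.16, 8.93 and 9.85 at T1, 11.00, 10.78, 10.84 and 11.17 at T2 and 9.78 and 9.83 at T3. T1.1 lay among the T2 oocytes. SMARCA5, the ISWI remodelling ATPase, was at 9.83, 8.61, 9.37, 9.03 and 9.45 at T1 and 10.92, 10.59, 10.13 and 9.97 at T2, so that all T2 oocytes were above all T1 oocytes, but T3.4 overlapped them, with T3.2 and T3.4 at 9.09 and 10.00. SUPT20H, a SAGA subunit, had the smallest T2 spread of the 145 members, at 9.25, 9.34, 9.15 and 9.12, against 6.36 to 9.36 at T1. RESF1, a retroelement silencing factor, differed by 0.93 from T1 and by 0.89 from T3. These became 0.40 without T1.2 and 0.37 without T3.2. ATF7IP, a partner of the methyltransferase SETDB1, was at 1.29, 0.00, 4.49, 4.86 and 5.52 at T1 and 5.15, 5.19, 5.47 and 5.34 at T2, with no count in T3.2 and a level of 5.25 in T3.4. The remaining members were RNF2 and RYBP of Polycomb complex PRC1, EED of PRC2, MIER1, KDM3A, HDAC3 and KANSL2.

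Kinases, phosphoinositide enzymes and Ras family regulators gave 14 members, the most of any list. RIOK3, an atypical protein kinase, was at 10.97, 8.26, 10.04, 8.30 and 9.78 at T1, 10.66, 11.39, 11.28 and 10.20 at T2 and 9.25 and 9.19 at T3. T1.1 was again inside the T2 range. CSNK1G3, a casein kinase 1, had 10.12, 9.87, 10.26 and 10.44 at T2 and 10.12, 7.76, 9.63, 7.85 and 9.15 at T1, with T1.1 level with T2.1. PPIP5K2, which makes inositol pyrophosphates, had all T2 oocytes (9.50, 9.63, 9.72 and 9.37) above all T1 (8.99, 6.09, 9.00, 6.71 and 9.21) and both T3 oocytes (8.40 and 7.85). PIK3C2A, a class II phosphoinositide 3-kinase, showed the same separation, at 7.07, 4.53, 6.78, 6.22 and 7.32 at T1, 8.21, 8.55, 8.36 and 8.19 at T2 and 7.57 and 5.19 at T3. Its T1 and T3 means were equal to 2 decimals (6.38) and its T2 mean was 8.33 ± 0.17 (SD, n = 4). RALGAPA1, which inactivates Ral GTPases, differed by 1.08 from T1 and 1.07 from T3 and overlapped T1, and the first was 0.48 without T1.2. Over the whole list 2 of the 14 had all T2 oocytes above all T1 oocytes (2.38% of all genes) and 11 had all above both T3 oocytes (25.1% of all genes), again on levels that the choice used.

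Members that act on RNA included nucleases, a deadenylase subunit and an exportin. XRN1, the cytoplasmic 5′ to 3′ exonuclease, was at 8.30, 6.81, 7.13, 1.51 and 7.38 at T1, 7.73, 7.78, 8.38 and 7.69 at T2 and 7.76 and 6.12 at T3. T1.5 was far below the other T1 oocytes, and without T1.5 the difference between the T2 and T1 means of XRN1 was 0.49 instead of 1.67. DIS3, the exosome nuclease, had 7.45, 5.64, 7.34, 5.00 and 6.72 at T1, 6.66, 8.58, 7.86 and 8.12 at T2 and 6.25 and 6.40 at T3. ZFC3H1, which directs nuclear polyadenylated RNA to decay, was at 7.65 to 8.13 at T2, and T3.4, at 7.92, exceeded 3 of the T2 oocytes while T3.2 was at 5.90. XPO1, the nuclear exportin, sat at the edge of the choice, with T2.1 and T2.2 (8.70 and 8.47) below T1.1, T1.3 and T1.6 (9.40, 9.66 and 9.68). YTHDC2, an RNA helicase needed for meiosis, had 4.71, 6.28, 6.17 and 5.48 at T2 against 5.59, 0.00, 5.53, 1.28 and 5.73 at T1 and 1.04 and 4.53 at T3. The deadenylase subunit CNOT6, the translation initiation factor subunit EIF2B1 and the germ cell RNA-binding protein DND1 completed the list.

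DNA damage members included the ATR activators ETAA1 and TOPBP1, the end-resection factor RBBP8, the kinase ATM and the helicase ZGRF1. RBBP8 was at 9.47, 8.31, 8.89, 7.36 and 9.06 at T1, 9.23, 9.84, 9.61 and 9.16 at T2 and 8.55 and 7.90 at T3. ETAA1 was at 8.71, 4.68, 8.11, 6.92 and 7.71 at T1, 8.24, 8.28, 8.36 and 8.98 at T2 and 7.33 and 7.93 at T3, with T1.1 inside the T2 range and T1.2 far below. TOPBP1 had T2 levels of 7.85, 8.04, 7.83 and 7.49, under the T1.6 level of 8.27. POLK, a translesion DNA polymerase, was at 4.36, 1.34, 3.49, 0.00 and 5.52 at T1, 5.63, 5.01, 5.81 and 5.46 at T2 and 2.95 and 2.67 at T3, a difference of 2.54 from T1 and 2.67 from T3. All 7 members of this list had every T2 oocyte above both T3 oocytes, beside 25.1% of all genes, and none had every T2 oocyte above every T1 oocyte, beside 2.38%. The choice required a T2 mean above both, so nothing is read from these counts.

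Transcription machinery and transcription factors gave 13 members. POLR2B, a core subunit of RNA polymerase II, was at 7.83, 3.48, 7.73, 6.07 and 7.60 at T1, 7.37, 7.98, 7.91 and 7.99 at T2 and 6.18 and 7.51 at T3. INTS6, of the Integrator complex, had no count in T1.2 and was at 6.03, 8.28, 7.69 and 7.39 at T2. BDP1, of the RNA polymerase III factor TFIIIB, was 1.68 above T1 and 1.84 above T3, where the latter was 0.59 without T3.4. CCNT2, a cyclin of the elongation factor P-TEFb, was 0.90 above T1 (0.27 without T1.2) and 1.90 above T3 (-0.05 without T3.4). Among transcription factors MYNN was at 9.16, 6.03, 7.23, 7.45 and 7.15 at T1, 8.35, 8.98, 9.10 and 9.21 at T2 and 7.89 and 8.05 at T3, with T1.1 inside the T2 range. VEZF1 was at 5.38 to 7.51 at T1 and 7.41 to 7.86 at T2. ZZZ3, of the ATAC acetyltransferase complex, was above every T1 oocyte by a narrow margin, its lowest T2 level being 7.14 and its highest T1 level 7.07. PRDM1, a repressor that marks early germ cells, overlapped widely (4.28 to 7.65 at T1, 6.05 to 8.27 at T2).

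Vesicle traffic, ubiquitin ligase and cell surface members were fewer. SEC23A, a COPII coat subunit, was at 8.87, 7.28, 7.90, 7.30 and 8.28 at T1, 8.98, 9.43, 9.14 and 9.01 at T2 and 8.06 and 7.03 at T3, so all 4 T2 oocytes exceeded the other 7. COG6, of the Golgi tethering complex, was at 9.11, 9.12, 8.97 and 8.24 at T2, where T2.4 fell below the T1.1 level of 8.34. ARAP2 differed by 1.11 from T1 and 1.13 from T3 (0.72 without T3.2), and DMXL1 by 0.98 from T1 (0.52 without T1.2) and 1.61 from T3. MARCHF7, a RING-type ubiquitin ligase, was at 8.99, 7.35, 7.53, 6.24 and 7.83 at T1, 10.16, 9.96, 9.25 and 9.10 at T2 and 8.19 and 7.53 at T3. Its T2 oocytes were all above the other 7, with T2.4 the nearest to T1.1. The ligases MYLIP and RNF13 differed from T1 by 0.92 and 1.36 and from T3 by 1.44 and 2.82, the last being 1.73 without T3.4. BTBD7 differed by 1.13 from T1 (0.28 without T1.2) and 1.29 from T3 (0.07 without T3.2). ITGB1, the integrin β1 chain, was at 9.65, 8.18, 8.90, 7.95 and 8.75 at T1, 10.31, 9.42, 9.98 and 9.55 at T2 and 8.00 and 8.12 at T3. The bone morphogenetic protein receptor BMPR1A spanned 5.19 to 7.35 at T1 and 6.79 to 8.23 at T2, and ADGRL2 ranged from 0.00 to 5.40 at T1 with 0.00 and 6.26 at T3.

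PLSCR2, annotated as a phospholipid scramblase, had the largest differences from both groups of any member. Its counts were 4, 0, 0, 1 and 2 in T1.1, T1.2, T1.3, T1.5 and T1.6, and 1 and 0 in T3.2 and T3.4. In T2.1 to T2.4 they were 69, 43, 21 and 34. On the level scale this is 1.11, 0.00, 0.00, 0.27 and 1.78 at T1, 6.03, 4.01, 3.82 and 4.07 at T2 and 0.44 and 0.00 at T3, so no kept oocyte outside T2 had more than 4 counts, and T2.1 stood above the other T2 oocytes. With so few counts the differences of 3.85 and 4.26 depend on the added 1, and reads shared with other scramblase genes cannot be told apart here. ADAL, an adenosine deaminase-like enzyme, was at 3.77, 0.94, 3.49, 2.61 and 3.42 at T1, 4.76, 5.33, 5.43 and 4.78 at T2 and 2.81 and 0.00 at T3, again apart from both groups. VPS13C, a lipid transfer protein, differed by 1.04 from T1 and 1.06 from T3 (0.70 without T3.4) and overlapped both groups, with T2.4 at 5.29. IREB2, the iron-responsive element binding protein, was tightly grouped at T2 (6.57, 6.61, 6.38 and 6.61) and spread from 0.00 to 6.97 at T1. Outside the lists the members with the highest T2 means were SERINC1, at 10.89, 7.60, 9.51, 8.51 and 10.28 at T1, 10.82, 10.88, 10.87 and 11.34 at T2 and 10.11 and 9.61 at T3, then N4BP2L2 with T2 levels of 10.35 to 10.73 and GARIN2 with 10.03 to 10.46. Smart-seq2 does not mark strand, so reads from a gene and an antisense partner cannot be told apart for any member.

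**Figure D3:**
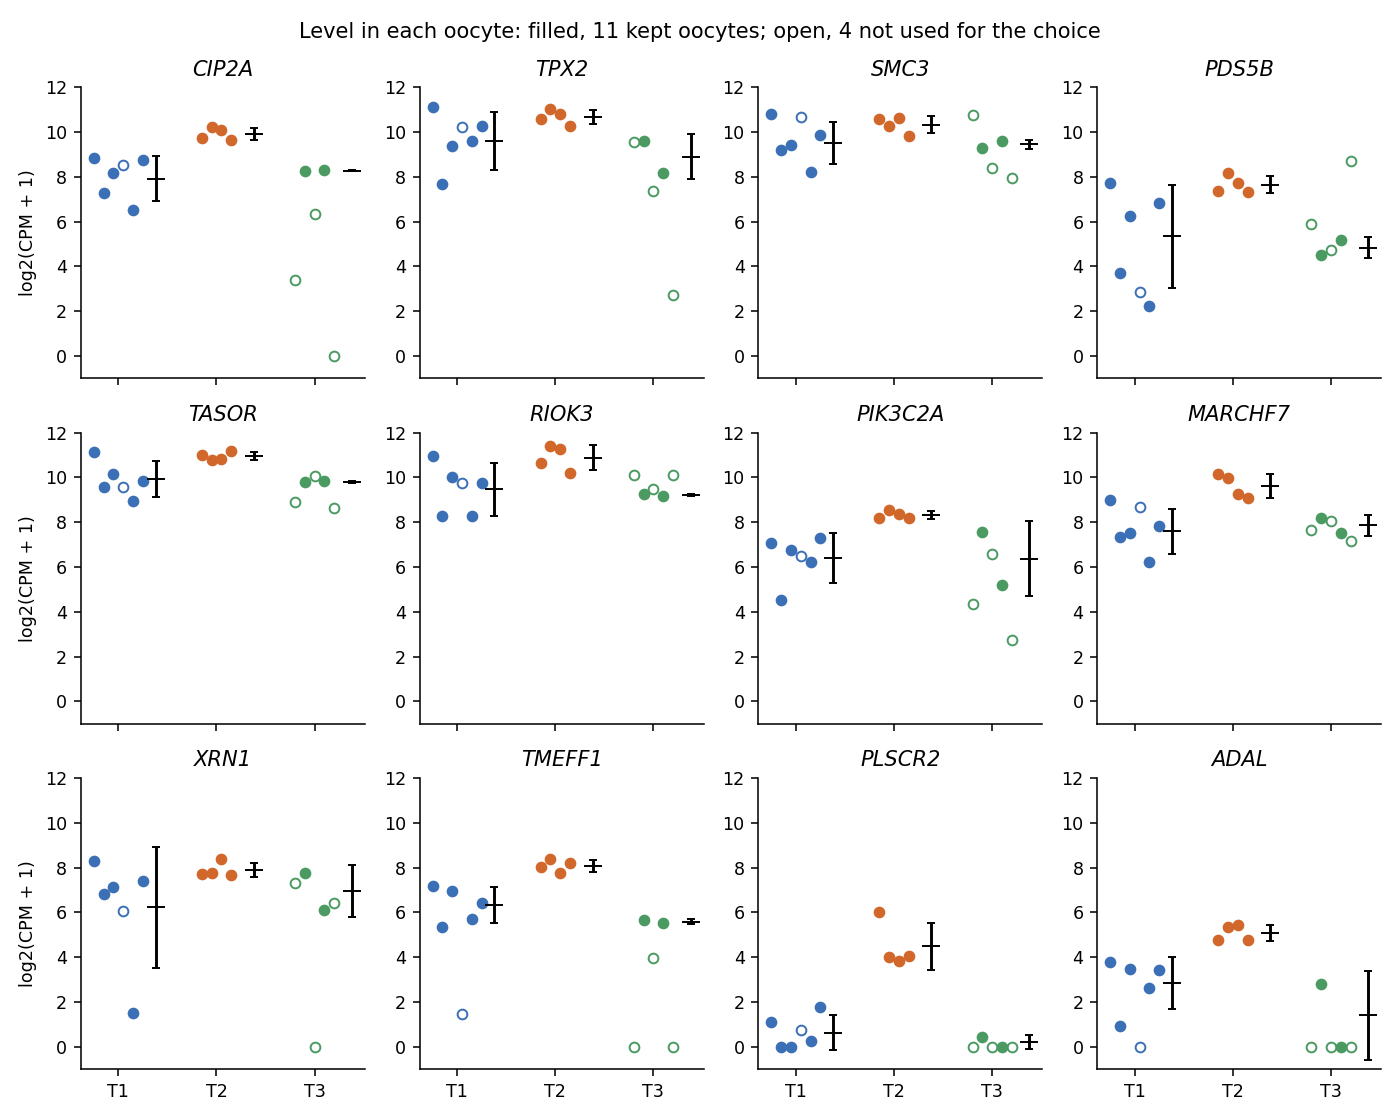
Level in log2(CPM + 1) of 12 members in every oocyte of T1 (blue), T2 (orange) and T3 (green), with the mean and SD of the kept oocytes beside each group; filled points are the 11 kept oocytes and open points the 4 others. The T2 points of CIP2A, PIK3C2A, MARCHF7, TMEFF1, PLSCR2 and ADAL lie above every filled T1 and T3 point, while those of TPX2, SMC3, PDS5B, TASOR, RIOK3 and XRN1 overlap T1.

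The 14 members with all T2 oocytes above all T1 oocytes included SMARCA5, CIP2A, MARCHF7, PPIP5K2, SEC23A, PIK3C2A, TMEFF1, ITPRID2, ZZZ3, C1H21orf91, RYBP, ADAL and PLSCR2, of which all but SMARCA5 and RYBP were also apart from T3; TMEFF1, ITPRID2, C1H21orf91 and RYBP are named after their values were seen. TMEFF1, a transmembrane protein with follistatin-like domains, was at 7.20, 5.35, 6.97, 5.69 and 6.40 at T1, 8.01, 8.38, 7.76 and 8.19 at T2 and 5.67 and 5.51 at T3.

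T1.1 was the oocyte that most often reached the T2 levels. Of the 131 members with overlapping T1 and T2 oocytes, T1.1 was the highest T1 oocyte in 61, T1.6 in 31 and T1.3 in 23. Without T1.1 all T2 oocytes were above the remaining T1 oocytes for 47 members (32.4%) and for 5.73% of all genes tested, and without T2.4 for 22 members and 4.14% of all genes tested. T1.2 was the lowest of the 11 oocytes for 85 members and T1.5 for 30. No member was lowest in a T2 oocyte, which the choice favours.

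The share of each oocyte's counts in the 145 members comes from the counts that chose them, so its high T2 values follow from the choice. It was 4.36% in T1.1, 1.02% in T1.2, 2.65% in T1.3, 1.35% in T1.5 and 2.99% in T1.6. The T2 oocytes were at 4.63%, 4.70%, 4.77% and 4.34%, a mean of 4.61% ± 0.187 (SD, n = 4) against 2.48% ± 1.35 (SD, n = 5) at T1, and T3.2 and T3.4 were at 1.86% and 1.84%. T1.1 thus lay just above T2.4, and the other T1 and both T3 oocytes were lower. The share of 30 oxidative phosphorylation genes was 1.08%, 4.74%, 0.960%, 3.43% and 0.915% in the T1 oocytes, 0.214% to 0.616% at T2 and 2.67% and 4.67% in T3.2 and T3.4. T1.2 and T1.5, the T1 oocytes lowest in the members, were the highest in these respiratory genes. The 100 most abundant genes of an oocyte took 18.7% to 40.8% of its counts at T1, 21.4% to 22.8% at T2 and 32.3% to 32.4% at T3. The part of these abundant transcripts in the members' levels was not tested.

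**Figure D4:**
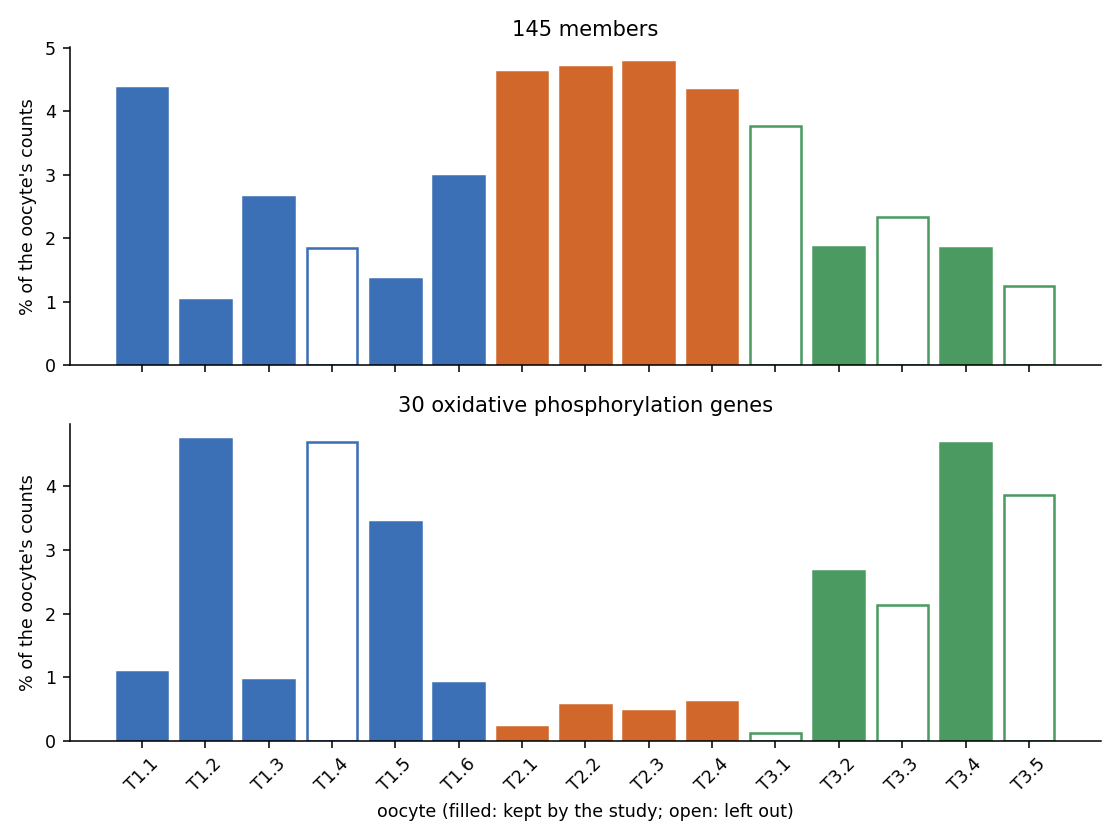
Share of each oocyte's total count, in %, taken by the 145 members (top) and by 30 oxidative phosphorylation genes (bottom), T1 blue, T2 orange and T3 green, with open bars for the 4 oocytes left out by the study. The T2 bars are 4.34% to 4.77% at the top and 0.214% to 0.616% at the bottom, and T1.1 reaches 4.36% at the top.

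The choice also bears on the spread of the members within a group, because it used the same T1 and T2 levels and favours genes with low outlying T1 oocytes, so nothing is read from the values that follow. The median SD of a member was 0.41 over the 4 T2 oocytes and 1.33 over the 5 T1 oocytes, and the T2 SD was the smaller in 138 of 145 members (95.2%). Over all genes tested the medians were 0.62 and 1.22, and the T2 SD was the smaller in 82.4%. Over the 5432 genes tested with a T2 mean of 4 or more, the level the choice asked for, the medians were 0.50 and 0.96 and the T2 SD was the smaller in 82.1%.

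**Figure D5:**
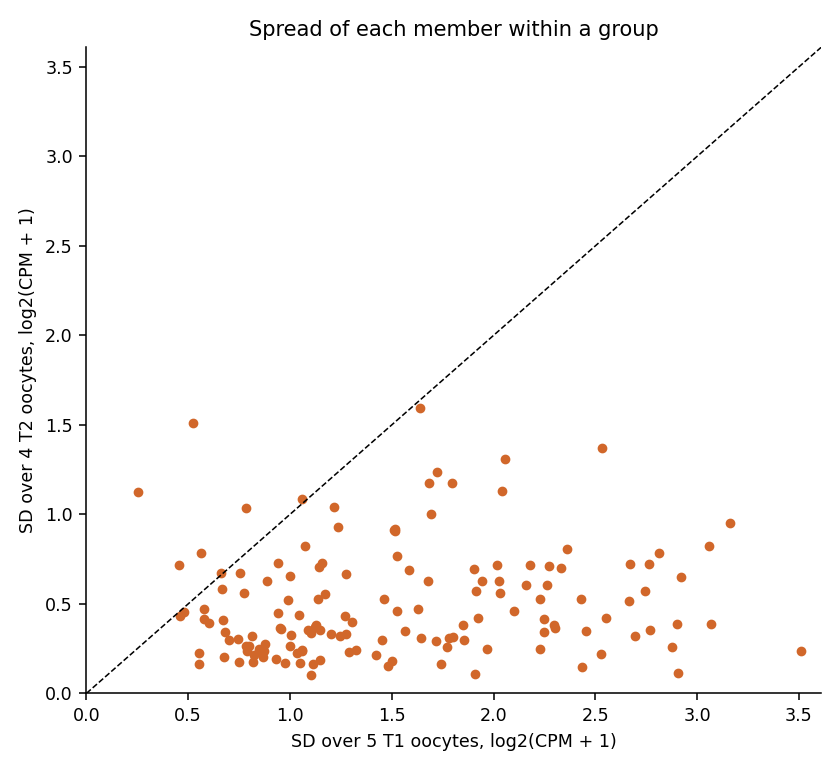
SD of each member over the 5 T1 oocytes (x axis) and over the 4 T2 oocytes (y axis), both in log2(CPM + 1), with a dashed line where both are equal. In 138 of the 145 members the point lies below the line.

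Between T1 and T3 the members differed in both directions. The T3 mean was below the T1 mean in 104 members and the median difference was -0.26, beside -0.30 over all genes tested. In 82 members the means differed by 0.5 or less, in 50 T3 was more than 0.5 lower and in 13 more than 0.5 higher. RNF13 (-1.46) and ADAL (-1.44) lay close to the lower limit of 1.5 that the choice set, while INTS6 (0.94) and XRN1 (0.72) had a higher T3 than T1 mean. Without T3.4 the differences of RNF13 and ADAL were -0.37 and -0.04, that of INTS6 was -0.30 without T1.2, and that of XRN1 was -0.46 without T1.5. The median difference of the members was -0.65 without T1.2, -0.09 without T1.3 and -1.10 with all 15 oocytes.

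A test across all 10198 genes called no member in any comparison. In edgeR's quasi-likelihood test with Benjamini-Hochberg adjustment, with the study's limits of 0.05 on the adjusted p and 1.5 on the absolute log2 fold change, 0 of 145 members and 0.0% of all genes were called between T2 and T1, between T2 and T3 and between T3 and T1. At an unadjusted p of 0.05, 23 members were higher at T2 than T1, 20 higher at T2 than T3 and 1 higher at T3 than T1, beside 2.77%, 8.24% and 1.62% of all genes tested. The lowest adjusted p of a member was 0.132 for T2 against T1 (PLSCR2, log2 fold change 5.31) and 0.0856 for T2 against T3 (TMEFF1, log2 fold change 2.202). edgeR's likelihood ratio test called 3 members higher at T2 than T1 (CIP2A, PLSCR2 and TMEFF1), where it called 0.245% of all genes higher, and 3 higher at T2 than T3 (ITPRID2, PLSCR2 and TMEFF1), where it called 2.67%. DESeq2 called 4 members higher at T2 than T1 (0.154% of all genes) and 11 higher at T2 than T3 (3.34%). PLSCR2 and TMEFF1 were called by both of these tools in both comparisons. Without T1.1 the quasi-likelihood test called 10 members and 0.494% of all 10120 genes tested higher at T2 than T1. With no filter on low counts it called 1 member and 0.014% of 14321 genes. In the quasi-likelihood fit the members' median log2 fold change was 0.75 from T1 and 0.98 from T3, beside -0.20 and 0.10 over all genes. From T1 it was negative for ATG101 (-0.26), HAUS4 (-0.15), RMDN3 (-0.07), RAB13 (-0.06) and KDM3A (-0.03). From T3 it was negative for ADGRL2 (-0.83), IL21 (-0.70), UHMK1 (-0.62) and HIPK3 (-0.03). It was positive for the other members. All these tests reuse the levels that chose the members.

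The 4 oocytes that the study left out played no part in the choice. The study gives low counts inside genes as its reason for leaving samples out. T1.4 had a total count of 2874041, within the 824854 to 4894970 of the kept oocytes, so its total does not show this reason. T3.1, T3.3 and T3.5 had 620910, 271763 and 175263. T1.4 was below every T2 oocyte for 118 members (81.4%), beside 49.6% of all genes tested. T3.1, T3.3 and T3.5 were all below every T2 oocyte for 82 members (56.6%), beside 34.2% of all genes. The choice asked for a high T2 level, so the members' shares are partly fixed by it and are not read as independent of it. The members held 1.84% of the counts of T1.4, and among the 3 T3 oocytes 3.77% (T3.1), 2.33% (T3.3) and 1.24% (T3.5), all under the lowest T2 oocyte. Oxidative phosphorylation genes held 4.68% of the counts of T1.4, and 0.134%, 2.14% and 3.85% of those 3 T3 oocytes. T3.1 thus held the smallest share of its counts in respiratory genes and the largest in the members of these 4, while the median level of the members was 5.19 in T3.1 and 5.20 in T1.4. Single members did not all follow. In T1.4 and then the T3 oocytes in the same order, CIP2A was at 8.52, 3.41, 6.36 and 0.00, TPX2 at 10.24, 9.55, 7.38 and 2.75 and TASOR at 9.55, 8.92, 10.06 and 8.65, all below the T2 oocytes. ITGB1 was at 8.19, 12.54, 9.88 and 8.86, so T3.1 was above every T2 oocyte, and SMARCA5 was at 10.09, 11.66, 9.96 and 6.53, with T3.1 again the highest of all oocytes. PLSCR2 had 2 counts in T1.4 and none in the other 3. In these 4 oocytes alone, edgeR's quasi-likelihood fit of T3 minus T1 gave a median log2 fold change of -0.13 over the 108 members that passed its filter. Over all 5759 genes that passed it was -0.26. T1.4 was alone in its group there and was assumed to vary like the T3 oocytes, so no calls are read from this fit. At totals of 175263 to 620910 counts, low members at 0 in T3 are not shown to be absent.

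Levels were also read in a T2 oocyte that was left out when the limits were applied. The limits were applied again with 1 T2 oocyte left out, which gave 152, 154, 144 and 166 genes without each oocyte from T2.1 to T2.4 in turn, and the left-out oocyte was then read. Its median level minus the T1 mean was 1.05 in T2.1, 1.13 in T2.2, 1.14 in T2.3 and 0.86 in T2.4, against 0.20, 0.26, 0.44 and 0.33 over the candidates that met the T2 level. Between 85.5% and 95.8% of the genes were above the T1 mean, beside 56.5% to 65.0% of the candidates. Against T1.4, which the choice never used, the medians were 1.84, 1.75, 1.96 and 1.62, beside 0.74, 0.87, 1.00 and 0.95 over the candidates. Against T3.1, also not used, they were 2.21, 2.04, 1.92 and 1.58, beside 1.59, 1.74, 1.86 and 1.87. The genes above T3.1 were 78.9%, 74.7%, 74.3% and 71.7%, beside 76.3%, 77.0%, 77.1% and 77.9% of the candidates. Against T3.3 the medians were 2.34, 2.09, 2.12 and 1.98, beside 0.94, 0.87, 0.89 and 0.96. Against T3.5 they were 5.43, 4.97, 4.84 and 5.19, beside 4.15, 4.34, 4.39 and 4.40. The T1 mean was shared with the choice, so the first of these differences is partly fixed by it. The T2 oocytes were alike in composition and T1.4 was not. The 100 most abundant genes took 21.4% to 22.8% of counts at T2 and 38.4% in T1.4. Oxidative phosphorylation genes took 0.214% to 0.616% and 4.68%. Genes read in 1 oocyte are not replicates, so the percentages above carry no test. Whether the differences from T1.4 and the T3 oocytes exceed such differences between libraries was not tested. None of them is read as independent of the choice.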

How the data were processed

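The samples were 15 single DF oocytes, profiled by Smart-seq2 and grouped by their GEO labels. The authors trimmed reads with Trim Galore (version 0.6.6 per the labels), aligned with HISAT2 against ARS-UCD1.2, and deposited un-normalised counts for each Ensembl gene, made in SeqMonk. The annotation release and strand setting are not given in the sources used here. Each count column was tied to its sample by its name, and 0 per-sample columns were left unmapped. Symbols came from the study's own gene list, where spreadsheet-split symbols were rejoined (CLP1 and MCF2 among the members).

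Levels were log2(CPM + 1) with CPM by column sum. The members and the gene lists were chosen with earlier results of these data known, so T2 minus T1, T2 minus T3 and T3 minus T1 are descriptions. Named genes were up to 4 members of each list with the highest T2 mean, the 10 with the largest smaller one of the 2 differences, the 10 with the highest T2 mean, the 3 candidates just inside and just outside each limit of 0.8, and the 5 highest of each marker list; others are named where stated, and a few genes and 1 list are not reported here.

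Counts were tested with edgeR 4.0.16 in R 4.3.3 (quasi-likelihood, TMM, filterByExpr, Benjamini-Hochberg, 1 fit of 3 groups, 10198 genes), after the procedure was tested on simulated data. All 145 members passed the filter on low counts. Alternatives were edgeR's likelihood ratio test, DESeq2 1.42.0, RLE factors, no filter, TMM-scaled CPM, pseudocounts of 0.5 and 5, thinning, all 15 oocytes, a replicate block and each oocyte left out in turn. Totals of 175263 to 4894970 counts per oocyte limit the precision of low members. Counts made without molecular identifiers do not tell molecules from their amplified copies. Each group is of separate animals. No genome or sequence of ARS-UCD1.2 was used, so no position or sequence is given.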

Additional observations from a re-analysis of the deposited data

Results flagged for a closer look

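Among 60 named members and 5 shares or medians per oocyte, 130 groups of 4 or 5 oocytes were examined for an oocyte whose gap to the nearest other exceeded Dixon's 95% critical value. Chance gives about 1 in 20 for independent groups that were not chosen on their values, and 12 gaps did. These groups share the same oocytes, and the choice favours genes with low outlying T1 oocytes, so the 12 are not compared with that rate. Within T1, XRN1 was low in T1.5 (level 1.51, others 6.81 to 8.30, gap ratio 0.78), and BTBD7 was low in T1.2 (0.94, others 4.86 to 5.73, ratio 0.817). The other 10 were within T2. T2.4 was high for SERINC1 (11.34 against 10.82 to 10.88, ratio 0.894) and ETAA1 (8.98 against 8.24 to 8.36, ratio 0.836), and low for ADGRL2 (3.49 against 4.99 to 5.22, ratio 0.866). T2.3 was high for XRN1 (8.38 against 7.69 to 7.78, ratio 0.865), ZFC3H1 (8.13 against 7.65 to 7.69, ratio 0.914) and ZZZ3 (7.62 against 7.14 to 7.18, ratio 0.914), and low for IREB2 (6.38 against 6.57 to 6.61, ratio 0.833). T2.2 was high for CCNT2 (7.43 against 6.44 to 6.58, ratio 0.861). T2.1 was low for POLR2B (7.37 against 7.91 to 7.99, ratio 0.869) and high for PLSCR2 (6.03 against 3.82 to 4.07, ratio 0.89). No share of counts and no median over the members was flagged.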

How the results depend on the processing

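The number of members called higher at T2 than T1 was 0, and it became 3 with the likelihood ratio test (25 of all 10198 genes), 1 with no filter on low counts (2 of 14321) and 4 with DESeq2 (22 of 14321), and lay between 0 and 10 with an oocyte left out (10 without T1.1, with 50 of 10120 genes). For T2 against T3 it was 0, 3 with the likelihood ratio test (272 genes), 11 with DESeq2 (479 genes) and between 0 and 1 with an oocyte left out (0 to 146 genes). No alternative called a member between T3 and T1. The replicate numbers name different animals, and same-numbered oocytes deviated together with correlations of -0.017 to 0.142 over 6 pairs, so they pair nothing; with the replicate block 0 members were called in each comparison, the median difference was 1.52 for T2 minus T1, 1.02 for T2 minus T3 and 0.41 for T3 minus T1, where it turned from -0.26. The limits gave 145 members, and 103 with TMM-scaled CPM (94 shared), 179 with all 15 oocytes (80 shared) and 71 to 178 with an oocyte left out, the lowest without T1.2. The median difference was 0.81 to 1.39 for T2 minus T1, 1.42 to 1.496 for T2 minus T3 and -0.65 to -0.09 for T3 minus T1 with an oocyte left out. For T2 minus T3 it was 1.17 with TMM-scaled CPM, 1.31 with a pseudocount of 5 and 2.69 with all 15 oocytes, and for T3 minus T1 it was -1.10 with all 15. The mean of the 4 medians in left-out T2 oocytes was 1.05, and 1.79 against T1.4, and neither is read as independent of the choice. The counts of members with T2 apart from T1 or T3 were examined under alternatives chosen after seeing the data. The 14 members apart from T1 (2.38% of all genes) became 7 with TMM-scaled CPM (1.94%) and 14 to 47 with an oocyte left out (2.38% to 5.73%), and the 101 apart from T3 (25.1%) became 61 with all 15 oocytes (12.9%) and 101 to 123 with an oocyte left out (25.1% to 41.0%). Depth limits the low members most, since T3.5 held 175263 counts.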
